A study of Mus musculus with 9 samples.

Results

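The genes described here are 10 markers of retinal ganglion cells, namely Sncg, Rbpms, Rbpms2, Pou4f1, Thy1, Nefl, Nefm, Nefh, Slc17a6 and Isl1. They were taken by gene symbol, and all 10 were found among the 14194 gene entries of the deposited table. Each of the 10 passed the submitters' filter on raw values in both conditions. The libraries hold ribosome-bound RNA of retinae from mice labelled Aldhl1l-Cre/Ert2+; NuTRAP+, in which tamoxifen switches on tagged ribosomes in cells that use the glial gene Aldh1l1. All of them are the positive fraction, the part pulled down through the GFP tag, and each pooled 2 retinae. In ONC libraries (n = 5, pools 913/986, 914/92, 938/88, 976/978 and 981/982) the optic nerve had been clamped for 3 s at about 1 mm behind the eye. Control libraries (n = 4, every pool but 913/986) are fellow eyes, left alone or given a sham procedure, and the labels do not tell these apart. All mice, Control eyes included, carried the same alleles and had tamoxifen, and tissue was taken 72 h after the procedure. The sources used here give no ages.

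Retinal ganglion cells are the output neurons of the retina, and their axons form the optic nerve. Crush of the nerve cuts these axons, after which many ganglion cells switch off genes of their mature identity and later die. The markers cover transcription factors of ganglion cell identity, the neurofilament subunits that fill thick axons, RNA-binding proteins, a synuclein and membrane proteins. The pull-down was aimed at glia, and how ganglion cell genes came to be in this fraction was not measured. In such pooled tissue, fewer ganglion cells, less RNA per cell and less carry-over into the pull-down cannot be told apart.

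Values were read as log2, each gene relative to its own control baseline. On that reading, on which fold values rest, 0 is near the usual control value and -1 is a level lower by a factor of 2. The values give differences between libraries and no levels between genes, and the depth of each library is unknown. The listed markers of Müller glia (10 of 10 measured, among them Glul, Rlbp1 and Slc1a3) were present, but how strongly the fraction was enriched cannot be read from such values. Y-linked RNA separated libraries that the labels pair. The mean over Kdm5d, Eif2s3y, Uty and Ddx3y was -7.88 in ONC 913/986 and -7.83 in ONC 914/92, -1.22 in Control 914/92, and between -0.03 and 0.51 in the other 6 libraries. The fellow eyes of pool 914/92 therefore went against their shared label, and where a call of a gene described by its values changed without pool 914/92 or without the ONC libraries lacking Y-linked RNA, that value is given.

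Of the 10 markers, 5 fell after crush, namely Nefh, Sncg, Rbpms2, Pou4f1 and Nefl. They fell by between 0.94 and 1.81 on the log2 scale (limma, two-sided, Benjamini-Hochberg over all genes, adjusted p between 0.000821 and 0.04). Among all genes tested, 0.648% were called lower and 0.514% higher. None of the 10 was called higher by limma, and none was higher at an unadjusted p under 0.05 or by the exact permutation test. At an unadjusted p under 0.05 (limma), 7 of the 10 were lower, Rbpms and Nefm among them. Of all 14194 genes, 2768 had such a p in this fit, in either direction. Rbpms and Nefm each had an exact permutation p of 0.0317. In the same 5 genes every ONC library lay below every Control library, which was so for 4.44% of all genes, and in none did every ONC library lie above (3.39% of all genes). The median difference over the 10 was -0.82, against 0.00 over all genes tested. The markers and the gene lists below were chosen with earlier results of these data known. Their counts and medians beside those of all genes are therefore a description and not independent evidence. The other 5 members, Rbpms, Nefm, Isl1, Thy1 and Slc17a6, had differences between -0.70 and 0.21 and did not pass. Leaving out Control 938/88, Control 976/978 or ONC 913/986 left 3 of the 5 called, namely Sncg, Rbpms2 and Nefh. With the animal pool as a block these 3 were called as well (0.43% of all genes called lower), and with a variance trend 2 were, Sncg and Rbpms2 (0.162% of all genes).

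**Figure D1:**
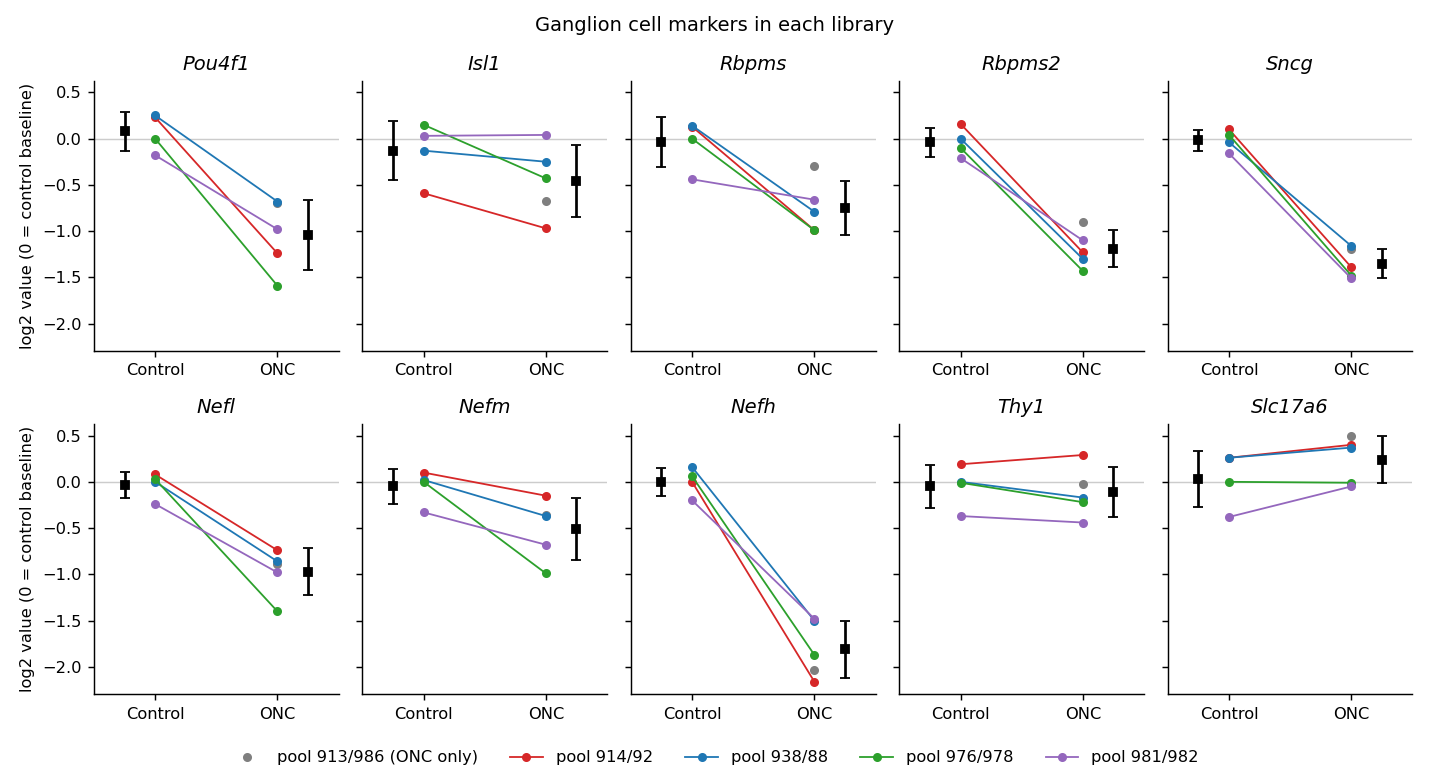
The log2 value of each marker (y axis, 0 is the control baseline) is plotted for Control and ONC libraries, with lines joining fellow eyes of a pool and black squares showing the mean and SD (n = 4 Control, n = 5 ONC). Nefh reached -1.48 to -2.16 in ONC libraries, whereas Thy1 and Slc17a6 overlapped between the groups.

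The stretch around the transcription start was available from RefSeq (GRCm38.p6) for 5 of the 10 markers, covering 250 bases before and 50 after the start. Windows of 3 markers that fell and both windows of Slc17a6, which did not pass, are shown side by side. Capitals mark matches on either strand to TAATTA, a core read by many homeodomain proteins, to ATTAAT, an AT-rich hexamer that can overlap it, to the E-box CAGCTG, to the GC box GGGCGG and to TATAAA. The windows, each 5′ to 3′ on the gene's strand, are those of Sncg (chr14:34374620-34374919, minus strand), Rbpms2 (chr9:65630332-65630631, plus strand), Pou4f1 (chr14:104467950-104468249, minus strand) and the upstream and downstream starts of Slc17a6 (chr7:51621580-51621879 and chr7:51624387-51624686, plus strand).
Sncg: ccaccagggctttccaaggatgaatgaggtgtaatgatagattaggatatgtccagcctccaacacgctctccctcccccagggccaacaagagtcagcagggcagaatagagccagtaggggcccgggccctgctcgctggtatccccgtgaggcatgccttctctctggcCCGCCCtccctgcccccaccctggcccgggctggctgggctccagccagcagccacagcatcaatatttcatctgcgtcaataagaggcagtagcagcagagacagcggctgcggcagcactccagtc
Rbpms2: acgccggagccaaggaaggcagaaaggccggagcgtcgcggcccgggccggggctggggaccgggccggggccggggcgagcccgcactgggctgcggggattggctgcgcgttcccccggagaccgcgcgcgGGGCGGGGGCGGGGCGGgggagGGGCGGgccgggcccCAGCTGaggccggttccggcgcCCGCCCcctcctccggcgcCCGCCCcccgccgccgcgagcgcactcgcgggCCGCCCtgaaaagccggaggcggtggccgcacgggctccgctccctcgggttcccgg
Pou4f1: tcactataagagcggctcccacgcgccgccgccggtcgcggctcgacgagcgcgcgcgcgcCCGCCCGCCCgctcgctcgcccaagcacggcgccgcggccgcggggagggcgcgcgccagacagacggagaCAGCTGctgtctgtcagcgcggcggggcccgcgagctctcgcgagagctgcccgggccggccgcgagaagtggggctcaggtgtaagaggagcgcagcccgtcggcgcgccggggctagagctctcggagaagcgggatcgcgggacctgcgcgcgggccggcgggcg
Slc17a6, upstream start: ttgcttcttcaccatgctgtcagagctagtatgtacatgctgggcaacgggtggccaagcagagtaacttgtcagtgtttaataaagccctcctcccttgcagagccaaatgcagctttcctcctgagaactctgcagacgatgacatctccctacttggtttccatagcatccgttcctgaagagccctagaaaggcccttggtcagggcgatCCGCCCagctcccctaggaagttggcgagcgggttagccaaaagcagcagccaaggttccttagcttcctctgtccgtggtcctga
Slc17a6, downstream start: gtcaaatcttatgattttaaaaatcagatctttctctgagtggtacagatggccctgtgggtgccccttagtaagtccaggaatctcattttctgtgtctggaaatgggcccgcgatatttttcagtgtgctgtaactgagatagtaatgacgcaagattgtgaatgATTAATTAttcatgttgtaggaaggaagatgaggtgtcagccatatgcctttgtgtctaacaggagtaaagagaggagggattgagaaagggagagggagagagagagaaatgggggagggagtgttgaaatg

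These windows differ widely in base composition. G and C made up 83.3% of the Rbpms2 window, 78.3% of that of Pou4f1 and 61.3% of that of Sncg, beside 53.7% and 43% in the windows of Slc17a6 and a median of 52.7% over 32851 RefSeq windows. The Rbpms2 window held 7 GC boxes and 1 E-box, Pou4f1 held 2 GC boxes and 1 E-box, and Sncg held 1 GC box, as did the upstream window of Slc17a6. GC boxes were found in 35.7% of all windows and CAGCTG in 16.3%. TAATTA, found in 5.29% of windows, and ATTAAT, in 4.75%, were both found at the downstream start of Slc17a6, overlapping each other, and in none of the other windows of the members. The Isl1 window (chr13:116309639-116309938, minus strand) held 1 E-box and 69% G and C. TATAAA, found in 13.6% of all windows, was found in none of them. A match is a description of the letters and not of a bound site.

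The neurofilaments are the light (Nefl), medium (Nefm) and heavy (Nefh) subunits of the intermediate filament that widens axons. Nefh and Nefl fell, and Nefm did not pass. Nefh (gene ID 380684, chromosome 11, 4938756 to 4948064, mm10) had values of 0.00, 0.16, 0.06 and -0.20 in Control 914/92, 938/88, 976/978 and 981/982. In ONC 913/986, 914/92, 938/88, 976/978 and 981/982 it had -2.03, -2.16, -1.50, -1.87 and -1.48. The 2 groups lay more than 1 log2 unit apart without overlap. Nefh was 3.51-fold lower, with a log2 difference of -1.81 ± 0.16 (SE, limma adjusted p = 0.00139), from 0.00 ± 0.15 (SD, n = 4) to -1.81 ± 0.31 (SD, n = 5). It remained called under each single library left out (limma adjusted p 0.00218 to 0.0111).

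Nefl (18039, chromosome 14, 68083884 to 68087737) had 0.08, 0.00, 0.03 and -0.24 in the Control libraries and -0.89, -0.74, -0.86, -1.40 and -0.98 in the ONC libraries, in the same order of pools. All ONC values lay below all Control values, with ONC 976/978 the lowest. The log2 difference was -0.94 ± 0.14 (SE), a 1.92-fold lower level (limma adjusted p = 0.0188). The call ended without Control 938/88 (limma adjusted p = 0.0707), Control 976/978 (0.0854) or ONC 913/986 (0.0544), and with the animal pool as a block (0.0564). Nefm (18040, chromosome 14, 68119545 to 68125004) lies 31.8 kb from Nefl on the other strand. Its values were 0.10, 0.02, 0.00 and -0.33 in Control and -0.36, -0.15, -0.37, -0.99 and -0.68 in ONC, and the groups overlapped, since ONC 914/92 lay above Control 981/982. Its difference of -0.46 ± 0.18 (SE, 95% interval -0.85 to -0.06) did not pass over all genes (limma adjusted p = 0.207). In the deposited coordinates Nefl and Nefm do not overlap, but in GENCODE M21 exons of longer transcripts of the pair share 1108 bases on opposite strands, 32.8% of the exonic bases of Nefl and 19.2% of those of Nefm. The sources do not say whether counting used strand.

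The subunits were compared with each other within libraries, where a shift common to all genes of a library cancels. Ratios were formed for all 6 pairs of members that share a role, which was decided after the values had been seen. Relative to their baselines, the log2 ratio of Nefm to Nefh was -0.06 ± 0.11 (SD, n = 4) in Control and 1.30 ± 0.52 (SD, n = 5) in ONC, a difference of 1.35 (exact permutation p = 0.0159, adjusted 0.0238 over 6 pairs). It lay between -0.14 and 0.10 in the Control libraries and between 0.80 and 2.00 in the ONC libraries, so the groups did not overlap. The difference for Nefl to Nefh was 0.87 and for Nefl to Nefm -0.48, each with the same exact permutation p and adjusted value and with no overlap. A p of 0.0159 is the smallest that 5 against 4 libraries allow. The permutation moved libraries without regard to pool, so the pairing of fellow eyes was not used. A paired permutation over 4 pools cannot reach a p under 0.05. ONC 914/92 and ONC 913/986, which lack Y-linked RNA, had the highest Nefm to Nefh ratios, 2.00 and 1.67. Without them the difference was 0.99 (exact permutation p = 0.0571, the smallest that 3 against 4 allow), and without pool 914/92 it was 1.23, with the same p. The other neurofilament pairs reached that p as well in both cases. The part of sex in these ratios was not tested.

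**Figure D2:**
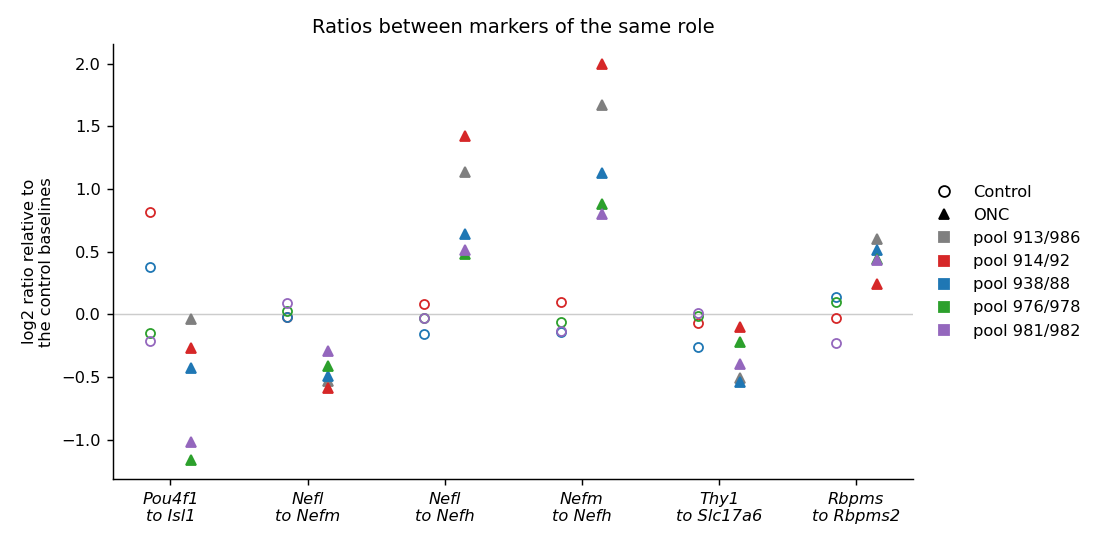
The log2 ratio between 2 markers of the same role, relative to the control baselines of both (y axis), is plotted for each Control library (open circles) and ONC library (triangles), coloured by pool. The Nefm to Nefh ratio lay between -0.14 and 0.10 in Control and between 0.80 and 2.00 in ONC, and the Pou4f1 to Isl1 and Thy1 to Slc17a6 ratios overlapped between the groups.

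The transcription factors are Pou4f1, the POU-homeodomain protein Brn3a of most ganglion cells, and Isl1, a LIM-homeodomain protein that bipolar and some amacrine cells also use. Pou4f1 (18996, chromosome 14, 104462325 to 104467999) had 0.23, 0.25, 0.00 and -0.18 in Control and -0.70, -1.24, -0.68, -1.59 and -0.98 in ONC. Every ONC library lay below every Control library, but the ONC libraries were spread over 0.91 log2 units. Pou4f1 fell by 1.12 ± 0.20 (SE), a 2.17-fold lower level (limma adjusted p = 0.04). That call sat close to the threshold. It ended without Control 914/92 (limma adjusted p = 0.0653), Control 938/88 (0.132), Control 976/978 (0.12), Control 981/982 (0.0683), ONC 913/986 (0.0623), ONC 914/92 (0.0711) or ONC 981/982 (0.0513), and with the animal pool as a block (0.0546). It ended too without pool 914/92 (limma adjusted p = 0.0936) and without the libraries lacking Y-linked RNA (0.123). The difference itself stayed between -1.21 and -0.98 under the single libraries left out.

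Isl1 (16392, chromosome 13, 116298270 to 116309688) had -0.59, -0.13, 0.15 and 0.03 in Control and -0.67, -0.97, -0.25, -0.43 and 0.04 in ONC. The groups overlapped widely, and Control 914/92, 938/88 and 981/982 lay within the range of the ONC libraries. The difference of -0.32 ± 0.22 (SE, 95% interval -0.83 to 0.18) did not pass (limma adjusted p = 0.429). The Pou4f1 to Isl1 ratio differed by -0.79 between ONC and Control (exact permutation p = 0.0635, adjusted 0.0635 over 6 pairs), so a larger fall of Pou4f1 than of Isl1 was not shown over all 9 libraries. With single libraries left out the difference ran from -0.93 to -0.59, with an unadjusted exact permutation p of 0.0286 without ONC 913/986 and of 0.0714 to 0.143 in the other 8 cases.

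Sncg, the gamma member of the synuclein family and a cytosolic protein abundant in ganglion cells, varied least within the groups. It lies on chromosome 14 from 34370274 to 34374669 (20618). Its values were 0.10, -0.04, 0.04 and -0.16 in Control and -1.19, -1.39, -1.16, -1.48 and -1.51 in ONC. The lowest Control library, at -0.16, lay far above the highest ONC library, at -1.16. The log2 difference was -1.33 ± 0.11 (SE, limma adjusted p = 0.000821), and it was between -1.52 and -1.12 within the 4 pools that have both eyes.

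The RNA-binding proteins Rbpms and Rbpms2 are paralogs, each with 1 RNA recognition motif, and antibodies to Rbpms are widely used to count ganglion cells. Rbpms2 (71973, chromosome 9, 65630582 to 65660518) had 0.16, 0.00, -0.10 and -0.21 in Control and -0.90, -1.23, -1.30, -1.43 and -1.10 in ONC. The groups did not overlap, and the log2 difference was -1.15 ± 0.13 (SE, limma adjusted p = 0.00383). Rbpms (19663, chromosome 8, 33782644 to 33929841) had 0.13, 0.14, 0.00 and -0.44 in Control and -0.30, -0.99, -0.79, -0.99 and -0.66 in ONC. Here ONC 913/986, at -0.30, lay above Control 981/982. The difference for Rbpms was -0.70 ± 0.18 (SE, 95% interval -1.11 to -0.30), which did not pass over all genes (limma adjusted p = 0.0973). The Rbpms to Rbpms2 ratio was higher in every ONC library (0.24 to 0.60) than in every Control library (-0.23 to 0.14), a difference of 0.45 (exact permutation p = 0.0159, adjusted 0.0238 over 6 pairs). Without pool 914/92 the difference was 0.49, and without the libraries lacking Y-linked RNA 0.47 (exact permutation p = 0.0571 in each, the smallest that these numbers of libraries allow).

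The membrane genes did not pass the test. Thy1, a glycoprotein anchored to the outer cell surface that is also known from vascular cells and fibroblasts, lies on chromosome 9 from 44043384 to 44048579 (21838). It had 0.19, 0.00, -0.01 and -0.37 in Control and -0.02, 0.29, -0.17, -0.22 and -0.44 in ONC. The groups lay on top of each other, with a difference of -0.07 ± 0.16 (SE, 95% interval -0.44 to 0.31, limma adjusted p = 0.83). Slc17a6, which encodes the glutamate transporter VGLUT2 of synaptic vesicles, lies on chromosome 7 from 51621830 to 51671126 (140919). It had 0.26, 0.26, 0.00 and -0.38 in Control and 0.49, 0.40, 0.37, -0.01 and -0.05 in ONC. ONC 913/986, 914/92 and 938/88 lay above all Control libraries and the other 2 ONC libraries within their range. Its difference of 0.21 ± 0.17 (SE) had a 95% interval of -0.18 to 0.60 (limma adjusted p = 0.505), which does not reach the differences measured for the 5 markers that fell. Without Control 981/982, and likewise without the libraries lacking Y-linked RNA, the difference was 0.07. Markers of vascular cells and fibroblasts, where Thy1 is also known, had a median difference of 0.00 (9 of 9 measured, 0 called by limma, 0 at an unadjusted p under 0.05). Their median by library was 0.00 to 0.16 in Control and -0.67 to 0.56 in ONC, and their part in the Thy1 values was not tested. The Thy1 to Slc17a6 ratio differed by -0.27 (exact permutation p = 0.0476, adjusted 0.0571 over 6 pairs), which did not pass.

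**Figure D3:**
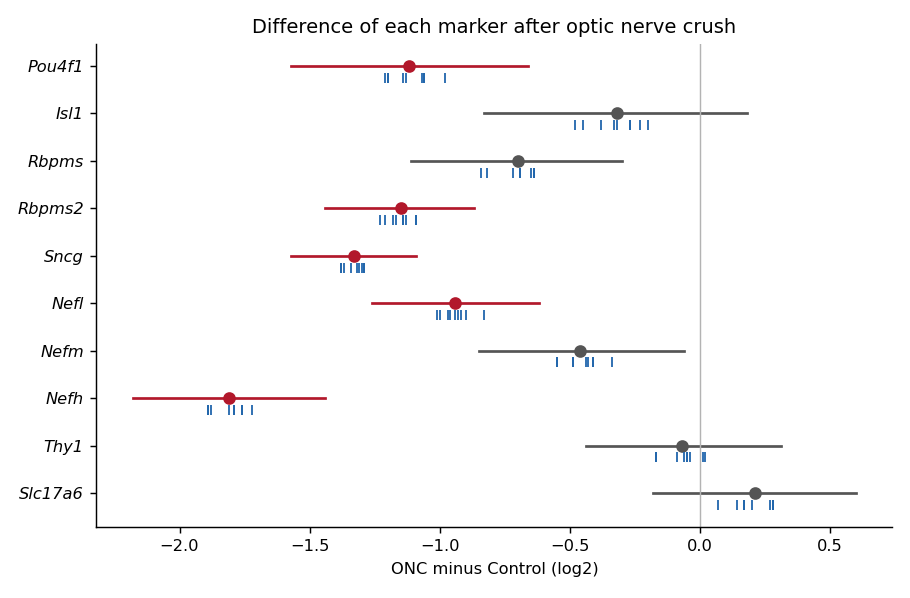
The ONC minus Control difference (x axis, log2) of each marker is plotted as a point with its 95% interval from limma, in red where the adjusted p was under 0.05 over all genes, and blue ticks below each point show the difference when 1 library is left out. The 5 red genes lie between -1.81 and -0.94, and the interval of Thy1 runs from -0.44 to 0.31.

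The means over the members of a role can be set side by side, though that of the transcription factors joins Pou4f1, which fell, with Isl1, which did not pass. That of the neurofilaments likewise joins Nefh and Nefl, which fell, with Nefm, which did not pass. The neurofilament mean was -0.26 to 0.06 in the Control libraries and -1.42 to -0.91 in the ONC libraries. The mean of the transcription factors was -0.18 to 0.08 in Control and -1.11 to -0.47 in ONC, and that of the membrane genes -0.37 to 0.23 in Control and -0.25 to 0.34 in ONC. Within pools 914/92, 938/88, 976/978 and 981/982 the neurofilament mean differed by -1.08, -0.97, -1.45 and -0.79. In the same order the mean of the transcription factors differed by -0.93, -0.53, -1.09 and -0.40, and that of the membrane genes by 0.12, -0.03, -0.11 and 0.13. Of these 3 means, that of the neurofilaments was lowest relative to Control in each pool, and pool 976/978 had the largest differences for neurofilaments and transcription factors. That ranking is one of means and not of genes. In the same order Pou4f1 differed by -1.48, -0.93, -1.59 and -0.80 and Isl1 by -0.38, -0.13, -0.59 and 0.01. Nefh differed by -2.16, -1.66, -1.93 and -1.28, Nefl by -0.82, -0.86, -1.42 and -0.74, and Nefm by -0.26, -0.39, -0.99 and -0.35. Beside these role means, the mean of the RNA-binding proteins differed by -1.26, -1.12, -1.16 and -0.55 in the same order of pools. Sncg, alone in its role, differed by -1.49, -1.12, -1.52 and -1.34. These role means were not tested, because the members stand for 10 genes and not for replicates.

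The libraries differed among themselves. Control 981/982 was the lowest Control library in 9 of the 10 markers, all but Isl1, and its median over the 10 was -0.23, against 0.00 to 0.12 in the other Control libraries. The ONC libraries had medians of -0.69 (913/986), -0.98 (914/92), -0.73 (938/88), -1.19 (976/978) and -0.83 (981/982). ONC 976/978 was the lowest ONC library in 4 markers, Rbpms2, Nefl, Nefm and Pou4f1, while ONC 914/92 was lowest in Rbpms, Nefh and Isl1. Within the 4 pools that have both eyes, 7 of the markers were lower in ONC in all 4. Thy1 and Isl1 were lower in 3 of 4 pools and Slc17a6 in 1 of 4.

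Other genes known from ganglion cells were read from a list of 20, of which 19 were measured. Of these, 6 fell and none was called higher (limma, 13 lower and 1 higher at an unadjusted p under 0.05), and the list's median difference was -0.75. Over all 14194 genes, 2768 had an unadjusted p under 0.05 in that fit, in either direction. Chrna6 and Chrnb3, nicotinic acetylcholine receptor subunits that ganglion cells use, had log2 differences of -1.90 ± 0.18 and -1.73 ± 0.21 (SE, limma adjusted p = 0.0019 and 0.00569). Pou4f2, the close relative of Pou4f1 known as Brn3b, had 0.07, 0.50, 0.00 and -0.40 in Control and -1.44, -1.49, -1.23, -1.41 and -1.81 in ONC. All its ONC values lay below all its Control values, with a difference of -1.52 ± 0.18 (SE, limma adjusted p = 0.00574). Isl2, the LIM-homeodomain relative of Isl1 that in the retina marks ganglion cells, fell by 1.43 ± 0.23 (SE, limma adjusted p = 0.0231). Vsnl1, a neuronal calcium sensor, and Tubb3, a neuronal beta-tubulin, differed by -0.91 and -0.85 (limma adjusted p = 0.00394 and 0.0295). The calls of Chrna6, Chrnb3, Pou4f2 and Vsnl1 held under each of the 9 single libraries left out, while that of Isl2 ended without Control 938/88, Control 976/978, Control 981/982 or ONC 913/986 (limma adjusted p 0.0679 to 0.0922). The call of Tubb3 ended in 6 of 9, without Control 914/92, 938/88 or 976/978 or ONC 913/986, 914/92 or 976/978 (limma adjusted p 0.054 to 0.0937). With the animal pool as a block Tubb3 was called (limma adjusted p = 0.0489) and Isl2 was not (0.0718). Without pool 914/92 neither Isl2 (limma adjusted p = 0.061) nor Tubb3 (0.0795) was called. Without the libraries lacking Y-linked RNA, Pou4f2 (limma adjusted p = 0.051), Isl2 (0.135) and Tubb3 (0.13) were not. Members with a positive difference were Gap43, a growth cone protein, and Prph, an intermediate filament protein, at 1.05 and 0.06 (limma adjusted p = 0.108 and 0.881).

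Genes of single ganglion cell types did not move one way. Of 22 listed, 21 were measured, with 14 negative and 7 positive differences and a median of -0.36. At an unadjusted p under 0.05 (limma), 6 were lower and 4 higher. Every ONC library lay below every Control library in 4 of them (4.44% of all genes) and above in 2 (3.39%). Spp1, the secreted protein osteopontin of alpha ganglion cells and also of activated microglia, and Adcyap1, the neuropeptide PACAP of light-sensitive ganglion cells, rose by 1.57 ± 0.29 and 1.53 ± 0.23 (SE, limma adjusted p = 0.0438 and 0.0188). The call of Adcyap1 ended without Control 938/88, Control 981/982 or ONC 913/986 (limma adjusted p 0.0605 to 0.0702) and with the block (0.069). That of Spp1 ended in 7 of 9, without Control 938/88, 976/978 or 981/982 or any ONC library but 976/978 (limma adjusted p 0.0505 to 0.149). Neither Adcyap1 nor Spp1 was called without pool 914/92 (limma adjusted p = 0.0612 and 0.0691) or without the libraries lacking Y-linked RNA (0.0983 and 0.102). Markers of microglia and macrophages differed by a median of 1.43 beside Spp1, and their part in it was not tested. Of 19 genes of the axonal cytoskeleton, transport and the initial segment, 13 were found by gene symbol, 11 of them with a negative difference. Whether the other 6 stand under other symbols was not checked. One, the axonal potassium channel gene Kcna2, fell, by 0.67 ± 0.09 (SE, limma adjusted p = 0.0119, 0.0635 with the block and 0.0582 without the libraries lacking Y-linked RNA). Kif5a, a kinesin motor for axonal transport, and Scn8a, a sodium channel of the initial segment, differed by -0.85 and -0.88 without passing (limma adjusted p = 0.0518 and 0.0737).

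While identity genes fell, genes that injured ganglion cells are known to switch on were higher in the same libraries. Of 15 such genes, all measured, 9 were called higher (limma), and the list had a median of 1.92. Of the 9, Ecel1, Atf3, Sprr1a, Sox11 and Stmn4 were called under each single library left out, and Chac1, Ddit3, Tnfrsf12a and Gal were not. Without the libraries lacking Y-linked RNA, Atf3 was not called either (limma adjusted p = 0.0711). That list, like the others, was drawn up with earlier results of these data known, so its direction is not independent evidence. Sox11, a transcription factor of young neurons, had -0.36, -0.21, 0.00 and 0.05 in Control and 3.72, 3.64, 3.24, 2.91 and 2.62 in ONC (log2 difference 3.36 ± 0.23 SE, limma adjusted p = 0.000283). The median of the list was 1.62 to 2.04 in the ONC libraries and -0.28 to 0.48 in the Control libraries, so all 5 ONC libraries carried both patterns.

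Markers of the other cell types moved beside these genes in some libraries. Amacrine, bipolar and rod markers, 10 of 10 measured in each list, all had negative differences, with medians of -0.29, -0.38 and -0.28. None was called by limma, and 1, 0 and 0 were lower at an unadjusted p under 0.05. For this and the counts below, 2768 of all 14194 genes had an unadjusted limma p under 0.05 in either direction. Horizontal cell markers (6 of 7 measured) had a median of -0.68, with 3 lower at an unadjusted p under 0.05 and 1 called lower, the calcium-binding protein gene Calb1 (log2 difference -1.26, limma adjusted p = 0.0493, and 0.0737 with the block), which ganglion and amacrine cells also use. The Calb1 call ended under 7 of the 9 single libraries left out, all but ONC 938/88 and ONC 981/982 (limma adjusted p 0.0731 to 0.155), without pool 914/92 (0.0954) and without the libraries lacking Y-linked RNA (0.148). Cone markers (7 of 7) had a median of -0.46, with none called and 1 lower at an unadjusted p under 0.05. The medians of amacrine, bipolar and rod markers were all lowest in ONC 914/92, at -0.77 for amacrine and -1.13 for rod markers. In ONC 938/88 and ONC 981/982 they lay between -0.16 and 0.14, within or near the Control libraries (-0.62 to 0.22). The median of the 10 ganglion cell markers there was -0.73 and -0.83. In ONC 913/986 they were -0.55, -0.60 and -0.63, beside a ganglion cell median of -0.69. In ONC 976/978 they were -0.47, -0.45 and -0.25, beside -1.19. Horizontal cell medians ran from -1.43 to -0.25 in ONC and from -0.23 to 0.25 in Control. Müller glia markers had a median difference of 0.09, with none called and 1 higher at an unadjusted p under 0.05, and their library medians ran from -0.51 to 0.22 in Control and from -0.26 to 0.50 in ONC. Those of astrocytes (4 of 4 measured, 3 with a positive difference) had a median of 0.42, with none called. At an unadjusted p under 0.05 (limma) 2 were higher, Gfap and Aldh1l1. Aldh1l1, the gene whose use switches on the tag, differed by 0.68 ± 0.23 (SE, limma adjusted p = 0.165). Within pools 914/92, 938/88, 976/978 and 981/982 it differed by 0.50, 0.55, 0.63 and 0.69. Its part in the ganglion cell values was not tested. Microglia and macrophage markers (14 of 14) were 0.28 to 2.99 by library median in ONC and -0.10 to 0.18 in Control, with 9 of 14 higher at an unadjusted p under 0.05 and 1 called, Cd68 (log2 difference 3.11, limma adjusted p = 0.0104, 0.053 with the block and 0.0843 without the libraries lacking Y-linked RNA). In ONC 914/92, where the microglia median was lowest, at 0.28, the ganglion cell median was -0.98. That library lacks Y-linked RNA, and its amacrine, bipolar and rod medians were the lowest as well. The part of microglia and macrophages in the ganglion cell values was not tested.

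**Figure D4:**
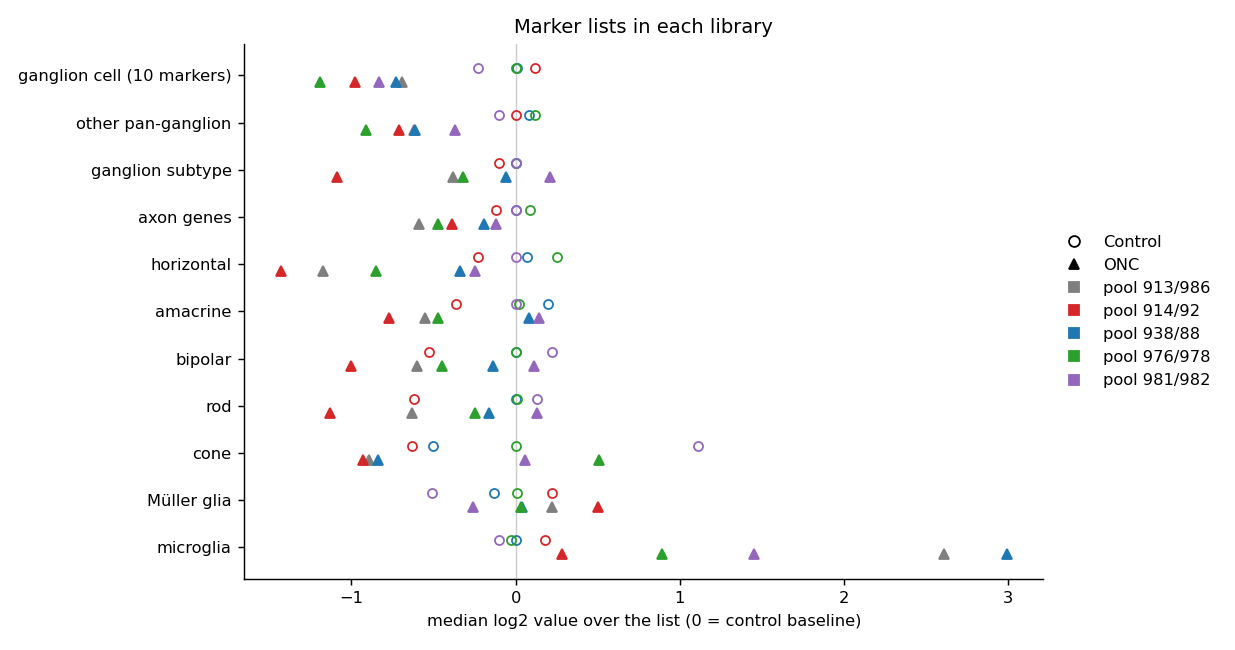
The median log2 value over each marker list (x axis, 0 is the control baseline) is plotted for Control libraries (open circles) and ONC libraries (triangles), coloured by pool. The 10 ganglion cell markers lay between -1.19 and -0.69 in ONC and between -0.23 and 0.12 in Control, whereas rod medians ran from -1.13 to 0.13 in ONC and from -0.62 to 0.13 in Control.

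The genes outside the list whose values came closest to the markers' median were sought over all 9 libraries by root mean square distance. The 6 nearest were Cdk14, a cyclin-dependent kinase (distance 0.101 log2 units), Cplx1, a complexin of presynaptic terminals (0.107), Clec2l, a C-type lectin-like gene (0.112), Fgf12, an intracellular partner of sodium channels (0.124), Tubb3 (0.154) and Nell2, a secreted neuronal glycoprotein (0.166). Cdk14 had 0.00, 0.11, 0.10 and -0.12 in Control and -0.87, -1.06, -0.71, -1.13 and -0.91 in ONC, a 1.94-fold lower level. The calls of Nell2 and Tubb3 depended on single libraries (3 of 9 refits with 1 library left out kept each), and Nell2 was not called without pool 914/92 (limma adjusted p = 0.0654) or without the libraries lacking Y-linked RNA (0.101). These 6 were picked for resembling the markers, so their differences, between -1.02 and -0.72, are given as a description.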

How the data were processed

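Ribosome-bound RNA of 9 libraries was analysed, grouped by the treatment label, with pools taken from the animal numbers. The values deposited by the authors are called normalized in the file headers and were read as log2. That each gene is set against a control baseline was read from the values, since 93.2% of genes had a Control library at exactly 0. Such zeros do not give the base of the logarithm, and base 2 was taken from the values without a statement in the headers. Per the file headers, genes were kept where raw values were at least 5 in 100% of the libraries of 1 of 2 conditions. The submitters' processing notes name mm10 and DESeq, with no aligner or counting tool stated there. The column of conditions passed, of another kind, is the authors' filter result. Depth per library is unknown. All 14194 genes were fitted with limma 3.58.1 (R 4.3.3), ONC against Control, with no variance trend, since a trend on values centred on the controls follows the difference under test, and no block. P-values are two-sided and adjusted by Benjamini-Hochberg over all genes (threshold 0.05). Pairs of members were compared by exact permutation over libraries, without regard to pool (scipy 1.17.1). The fit was tested on simulated data. The members and lists were chosen with earlier results of these data known. A listed gene counts as measured where its symbol was found. Named genes are all members, list genes past the threshold or among the 3 smallest p of a list, and the 6 genes nearest to the members' median, and others are named where a count of 5 or fewer is given. One gene past the threshold is not reported here. Replicates are pools of animals. Fellow eyes share a pool label, and the deviations of fellow eyes from their group means correlated across genes at 0.377 (914/92), 0.178 (938/88), -0.0642 (976/978) and 0.45 (981/982). Between a Control and an ONC library of different pools the correlation ran from -0.489 (Control 914/92 with ONC 981/982) to 0.409 (Control 914/92 with ONC 913/986). Alternatives were a variance trend, the pool as a block, median centring, quantile normalization, a filter in both conditions and libraries left out.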

Additional observations from a re-analysis of the deposited data

How the results depend on the processing

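Without the libraries lacking Y-linked RNA and the block without pool 914/92 were added after the data had been seen. Against 92 genes lower, 73 higher and 5 members lower, a variance trend called 23, 27 and 2. The animal pool as a replicate block called 61 lower and 3 members. The replicate block with a variance trend called 0, 0 and 0 (limma, 3574 genes and 7 members at an unadjusted p under 0.05), quantile normalization 19, 11 and 1, and the block without pool 914/92 5, 15 and 0 (2576 genes and 7 members at an unadjusted p under 0.05). The filter in both conditions called 36 higher, leaving out pool 914/92 111 higher, and leaving out the libraries lacking Y-linked RNA 41 lower and 31 higher. With single libraries left out, 37 to 142 genes were lower, 24 to 116 higher and 3 to 5 members lower. The lower count moved by over 1.5 times on leaving out 938/88 (38), 976/978 (37) or 981/982 (51) of the Control libraries, or 913/986 (40), 976/978 (52) or 981/982 (142) of the ONC libraries. The higher count did without Control 914/92 (116), 938/88 (33), 976/978 (25) or 981/982 (39), or ONC 913/986 (24), 938/88 (44) or 976/978 (40). Sncg, Rbpms2 and Nefh were each called in 15 of 18 refits, Nefl in 10 and Pou4f1 in 4, and the other 5 members in none. Sncg and Rbpms2 lost their calls with quantile normalization (limma adjusted p = 0.0683 and 0.104), and Nefh with a variance trend (0.0826). Thy1, not called, changed sign without Control 914/92 (0.01) and without ONC 981/982 (0.02), within a range of -0.17 to 0.02 over the single libraries left out, and was -0.23 without the libraries lacking Y-linked RNA. No other member changed sign. The causes were not tested. Depth being unknown, precision rests on the spread between libraries, and pools 914/92 and 976/978 limit what pairing shows.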

Other observations

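Some genes known from ganglion cells, picked out after their values were seen, did not pass the test. Stmn2, a microtubule regulator of growing axons, had -0.02 ± 0.11 (SE) and Uchl1, a deubiquitinase abundant in neurons, -0.22 ± 0.11 (SE), (limma adjusted p = 0.918 and 0.308). Opn4, the photopigment melanopsin of light-sensitive ganglion cells, ran from -2.27 in ONC 914/92 to 0.61 in ONC 981/982 (difference -0.55 ± 0.50 SE, limma adjusted p = 0.545).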
